A study of Mus musculus with 2 samples.

Results

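The C-type lectin receptor genes were taken as the protein-coding genes of GENCODE release M21 whose symbols start with Clec and a digit, together with Cd209a to Cd209g. The rule gave 37 genes, and all 37 were found among the 37315 identifiers of the count files. Clec7a, which encodes Dectin-1, the receptor for fungal beta-glucan, was not among them because that release types it as a polymorphic pseudogene. Its values are given beside those of the members.

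The data came from lung tissue of C57BL/6 mice, with 1 control library and 1 library from mice exposed to PM2.5, airborne particles small enough to reach the alveoli. The sex and age of the mice, the dose, route and length of exposure, and the number of animals behind each library are unknown, as the sources used here do not give them. The control library held 62788045 counts and the PM2.5 library 57435027. Both titles carry the number 12 with the letter W, which the labels do not explain. With 1 library per group there was no replicate check. The intervals given beside ratios are therefore exact 95% intervals that cover counting error only. Every ratio, with or without an interval, describes these 2 libraries rather than the conditions. In bulk tissue, fewer cells of a type and less RNA per cell cannot be told apart.

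C-type lectin receptors share a folded domain that, in many members, holds calcium and binds sugars. Myeloid cells use them to sense fungi, mycobacteria and dead cells: activating members signal through the kinase Syk, directly or through adaptors such as the Fc receptor gamma chain, and inhibitory members recruit phosphatases. Other members bind proteins rather than sugars, line blood vessels, or are secreted, so the name covers genes of several cell types.

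Levels are in CPM, counts divided by a library size that was scaled by the trimmed mean of M values (TMM) and then brought to a common total of 1000000, and a gene is called measured here at a mean of at least 1 CPM. A measured gene was counted as higher or lower in the PM2.5 library if it differed at least 1.5-fold and its interval left out a ratio of 1. Of the 37 members, 25 were measured, 10 had counts in at least 1 library but stayed under that level, and Clec3a and Clec18a had no count in either library. Of the 25, 23 were at 1 CPM or more in the control library, and the other two, Cd209c and Cd209d, entered through the PM2.5 library. By the 1.5-fold rule 11 members (44%) were higher and 4 (16%) lower, against 14.9% higher and 19.1% lower among all 14518 measured genes. With library totals in place of TMM, 13 members were higher and 3 lower, against 23.8% and 9.90% of all genes. The median log2 ratio was 0.45 for the members and -0.09 for all measured genes. Once the trend of ratio on transcript length was removed, it was -0.011 for the members and -0.09 for all genes. Then 10 members were higher and 3 lower, against 14.2% and 16.7% of all genes. The lower members Clec14a and Clec1a held most of the control reads of the whole family. The summed level of all members was lower in the PM2.5 library, 1601 CPM against 1093 CPM, and without Clec14a and Clec1a it was 551 and 575 CPM.

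**Figure D1:**
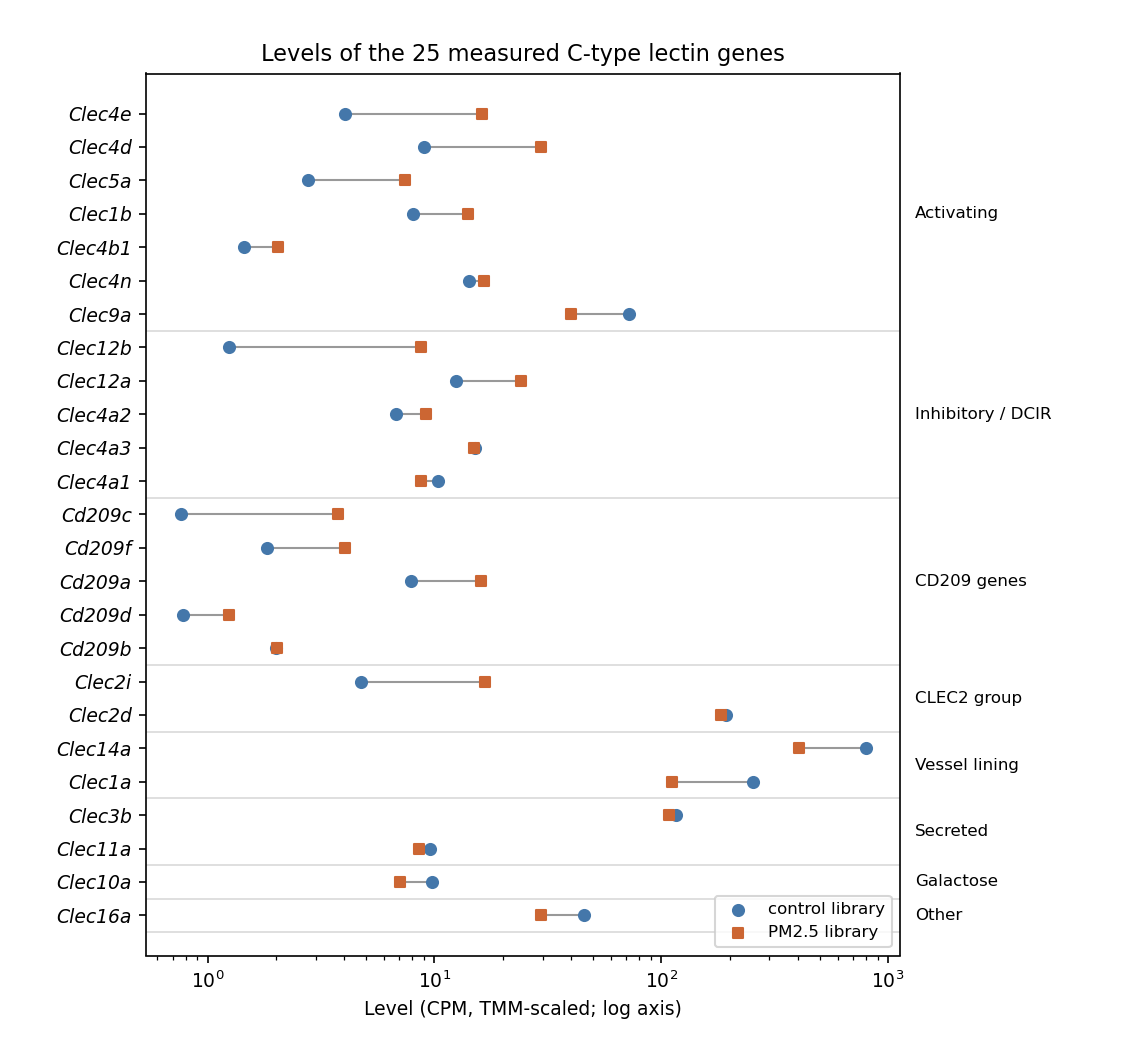
Level of each of the 25 measured members in the control library (circles) and the PM2.5 library (squares), in TMM-scaled CPM on a log axis, grouped by role, with 1 library per group. Clec14a had 797 and 406 CPM and lies farthest right, while Clec12b and Cd209c show the widest gaps.

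Per length of transcript, the 4 highest levels in the control library belonged to genes outside the activating and inhibitory receptors, and Clec9a came after them. In the control library Clec14a had 174 CPM per kb of exon, Clec2d 159, Clec3b 117, Clec1a 48.9 and Clec9a 21.9. In the PM2.5 library Clec2d led with 151 CPM per kb, followed by Clec3b with 109 and Clec14a with 88.8. Clec4n was above Clec4d in the control library with 10.01 CPM per kb against 5.61. In the PM2.5 library Clec4d stood at 18.4 CPM per kb, above Clec9a with 12.1 and Clec4n with 11.6.

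The activating receptors Clec4d, Clec4e and Clec5a were the members of that group with the highest ratios. Clec4e encodes Mincle, which recognises mycobacterial cord factor and a nuclear protein released from dead cells, and Clec4d encodes its partner MCL. Both signal through the Fc receptor gamma chain, and their genes lie side by side on chromosome 6. Clec5a encodes MDL-1, which signals through the adaptor DAP12.

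Up to 250 bases before the start sites of these genes and of Clec12b, the member with the highest ratio, are printed because these genes were higher together. Clec14a, the most abundant of the lower members, is added for contrast. The sequences are RefSeq promoters on GRCm38.p6, which had an entry for 31 of the 37 members, written 5′ to 3′ on the strand of the gene. Clec4d lies at chr6:123261857-123262106 on the plus strand. The minus-strand windows are chr6:123289872-123290121 for Clec4e, chr6:40585822-40586055 for Clec5a, chr6:129385504-129385753 for Clec12b and chr12:58269291-58269508 for Clec14a. The Clec5a and Clec14a windows end where the GENCODE gene begins, and the Clec12b window lies inside the bounds of the longer GENCODE gene. Capitals mark the PU box GAGGAA, bound by the myeloid factor PU.1, and the C/EBP motif TTGCNNAA, on either strand.
Clec4d: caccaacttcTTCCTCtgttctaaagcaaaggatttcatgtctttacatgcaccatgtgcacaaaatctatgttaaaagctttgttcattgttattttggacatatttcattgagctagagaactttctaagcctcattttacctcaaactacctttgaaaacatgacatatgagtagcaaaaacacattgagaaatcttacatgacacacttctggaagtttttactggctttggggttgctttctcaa
Clec4e: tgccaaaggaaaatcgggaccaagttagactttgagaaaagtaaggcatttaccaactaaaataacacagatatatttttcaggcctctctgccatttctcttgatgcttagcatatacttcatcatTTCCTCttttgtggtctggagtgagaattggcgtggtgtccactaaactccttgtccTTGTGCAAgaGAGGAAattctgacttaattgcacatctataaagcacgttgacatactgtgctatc
Clec5a: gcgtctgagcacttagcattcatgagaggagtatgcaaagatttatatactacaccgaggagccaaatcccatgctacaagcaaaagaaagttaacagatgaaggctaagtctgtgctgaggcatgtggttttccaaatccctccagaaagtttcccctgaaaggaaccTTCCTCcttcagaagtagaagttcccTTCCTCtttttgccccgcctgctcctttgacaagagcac
Clec12b: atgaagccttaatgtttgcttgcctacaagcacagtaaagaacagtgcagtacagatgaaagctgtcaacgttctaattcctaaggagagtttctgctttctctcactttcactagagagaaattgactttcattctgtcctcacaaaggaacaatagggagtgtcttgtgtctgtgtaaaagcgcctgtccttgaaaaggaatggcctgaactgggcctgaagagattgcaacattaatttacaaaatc
Clec14a: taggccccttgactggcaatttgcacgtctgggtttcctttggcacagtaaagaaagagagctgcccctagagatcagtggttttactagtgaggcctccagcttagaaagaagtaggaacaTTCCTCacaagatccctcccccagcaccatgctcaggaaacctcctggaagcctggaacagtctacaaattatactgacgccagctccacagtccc

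In full windows of 250 bases before and 50 after the RefSeq start, GAGGAA was found for 15 of 31 members (48.4%), against 31.3% of all 27025 genes in the table. It was found for 5 of the 11 higher members, Clec4d, Clec4e, Clec5a, Clec12a and Cd209d. The same letters were found for 2 of 3 lower members, Clec14a and Clec16a, and for 4 of 7 measured members that were neither. The motif TTGCNNAA was found for 6 of 31 members (19.4%) and 12.2% of all genes. By direction, it was found for 3 of 11 higher members (Clec4e, Clec12a and Clec2i), 1 of 3 lower members and 2 of 7 that were neither. The ETS core CCGGAA was found for 6 of 31 (19.4%) and 16.7% of all genes. No match of the 3 motifs overlapped another in the printed sequences. The Clec4e window held 2 PU boxes, at 123 and 56 bases before the start, and the C/EBP match between them at 66 bases, whereas none of the letters searched for was in the Clec12b window. A match describes letters in a window and shows no binding.

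Clec4e (ENSMUSG00000030142, GRCm38 chromosome 6, 123281789 to 123289870, minus strand) had 233 control counts and 1012 PM2.5 counts, or 4.02 and 16.3 CPM, a 4.05-fold higher level (3.51 to 4.69). For Clec4d (ENSMUSG00000030144, 123262111 to 123275265, plus strand) the counts were 520 and 1830, a 3.28-fold higher level (2.97 to 3.62). Clec5a (ENSMUSG00000029915, 40574894 to 40585821, minus strand) had 161 and 463 counts and was 2.68-fold higher (2.24 to 3.23). All 3 intervals lay above 2-fold. Clec5a also differed by 1.39 times more than Clec12a, an inhibitory receptor of myeloid cells (1.13 to 1.71). The ratio of Clec4d to Clec4e counts, which does not depend on library scaling, was 2.23 for the control and 1.81 for the PM2.5 library. Clec4e thus differed by 1.23 times more than Clec4d (1.04 to 1.47).

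**Figure D2:**
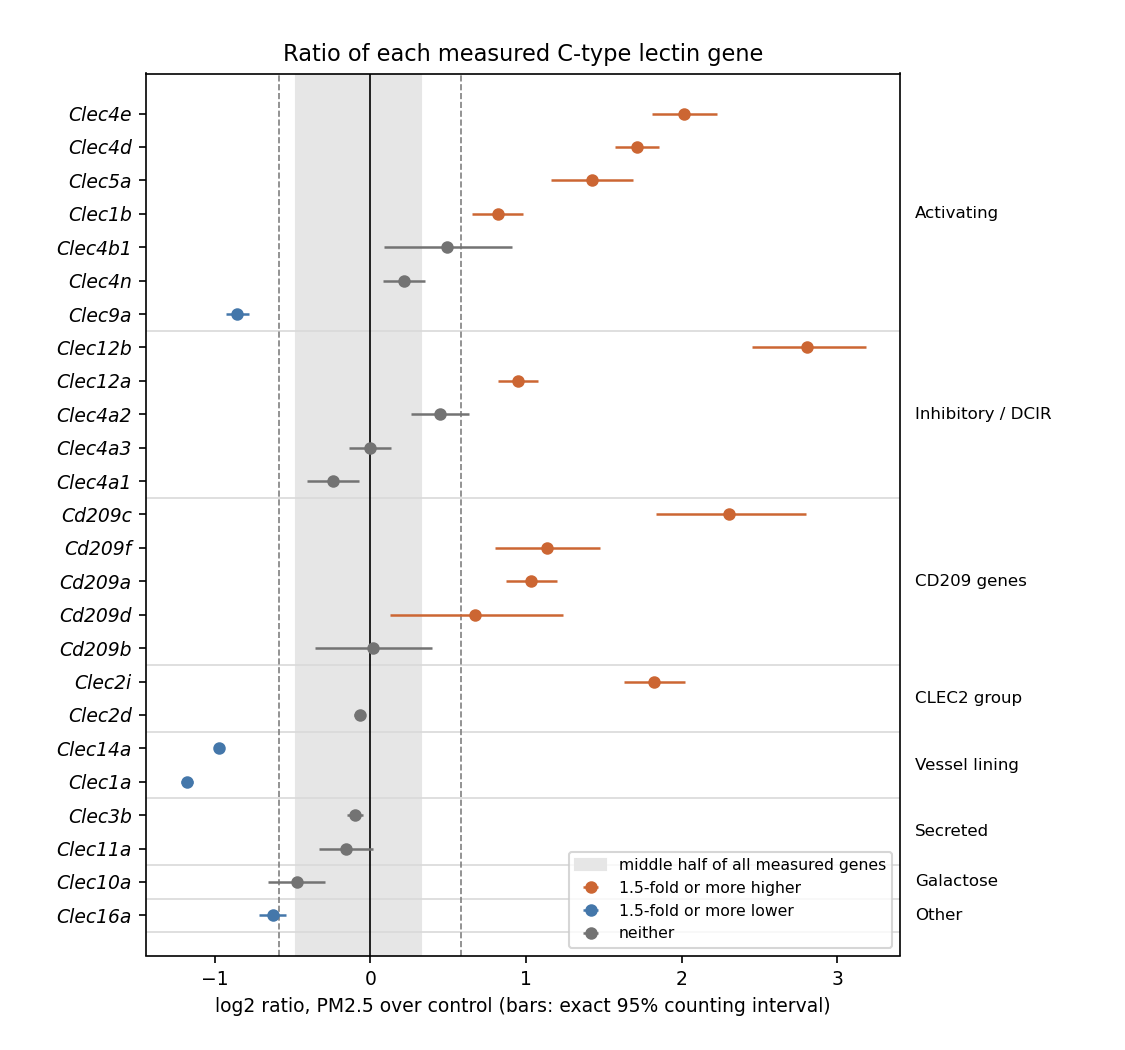
The log2 ratio of PM2.5 to control for the 25 measured members, grouped by role, with exact 95% counting intervals as bars. Dashed lines stand at 1.5-fold and the grey band runs from the lower to the upper quartile of all 14518 measured genes. Clec12b at 2.81, Cd209c at 2.30 and Clec4e at 2.02 lie farthest right, and Clec1a at -1.18 farthest left.

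The other activating receptors of the same cluster stayed under 1.5-fold, and their direction is not firm. Clec4b1 passed that size under upper-quartile scaling and with library totals, and with the length trend removed the log2 ratios of Clec4b1 and Clec4n were -0.011 and -0.10. Clec4n encodes Dectin-2, a receptor for fungal mannans that also uses the Fc receptor gamma chain. It had 824 and 1028 counts, a ratio of 1.16 (1.06 to 1.28), so the ratio of Clec4e to Clec4n counts was 3.48 times larger in the PM2.5 library (2.93 to 4.14). Clec4b1, a receptor of the DCAR group, had 84 and 127 counts and a ratio of 1.41 (1.06 to 1.88). Its close relative Clec4b2 had 0 and 4 counts. The Dectin-1 gene Clec7a, outside the rule, had 3311 and 5692 counts and was 1.60-fold higher (1.53 to 1.67), or 0.57 on the log2 scale and just under 1.5-fold with the length trend removed. Its level per length was 21.6 and 34.7 CPM per kb. Relative to Clec7a, Clec4n was 1.38 times lower in the PM2.5 library than in the control library (1.24 to 1.53).

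Clec1b and Clec9a, the activating members that carry their own signalling motif, went in opposite directions. Clec1b encodes CLEC-2, the platelet receptor for podoplanin. It had 464 and 877 counts, a 1.76-fold higher level (1.57 to 1.98), and its ratio was close to that of Clec7a, with a ratio between them of 0.910 (0.805 to 1.03). Markers of platelets and megakaryocytes were mostly lower: of 8 measured markers, 5 were lower and 1, Pf4, was 1.90-fold higher (7 and 0 with the length trend removed), and the summed level of all 9 was 129 and 87.8 CPM. The integrin genes Itgb3 and Itga2b were 1.69-fold and 2.45-fold lower, and the count of Clec1b relative to Itga2b was 4.31 times larger in the PM2.5 library (3.72 to 5.01). Itga2b had the lowest ratio of the measured platelet markers, and the pair was chosen after the values were seen. Clec1b and Clec9a share 184 bases of exon on the same strand, so reads there cannot be assigned to 1 of them.

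Clec9a encodes DNGR-1, which binds actin of dead cells and marks conventional type 1 dendritic cells (cDC1). It had 4182 and 2480 counts, or 72.1 and 39.9 CPM, and was 1.81-fold lower (1.72 to 1.90). Relative to Clec10a, a lectin of macrophages and other dendritic cells, it was 1.30 times lower in the PM2.5 library (1.14 to 1.49). None of the 7 measured cDC1 markers was lower by the 1.5-fold rule and 1, Batf3, was higher, with a median log2 ratio of -0.05 (0.18 with library totals). Their lowest ratio was 0.690, and the summed level of all 8 markers of the list was 451 and 347 CPM. The chemokine receptor gene Xcr1, the defining cDC1 marker, had 205 and 248 counts and a ratio of 1.13. Per length, Clec9a was at 21.9 and 12.1 CPM per kb and Xcr1 at 0.794 and 0.895. Relative to Xcr1, Clec9a was 2.04 times lower in the PM2.5 library (1.68 to 2.48). The annotated 3′ end of Clec9a lies 8 bases from that of Clec1a, which runs towards it on the opposite strand. Clec1a had 14692 and 6961 counts, and the count of Clec9a relative to Clec1a was 0.285 for the control and 0.356 for the PM2.5 library. The strand setting of the counting is not given in the sources used here, and whether reads of Clec1a entered the Clec9a count was not tested.

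Among the inhibitory receptors, Clec12b had the highest ratio of all measured members. Both Clec12a, or MICL, a receptor for uric acid crystals, and Clec12b carry an inhibitory motif in their tails. Clec12b (ENSMUSG00000030158, chromosome 6, 129375515 to 129385874, minus strand) had 72 control counts and 541 PM2.5 counts, or 1.24 and 8.70 CPM, a 7.0-fold higher level (5.47 to 9.09). Its neighbour Clec12a had 723 and 1495 counts and was 1.93-fold higher (1.76 to 2.11). The 2 genes therefore differed from each other: Clec12b stood at 0.0996 of the Clec12a count for the control and 0.362 for the PM2.5 library, 3.63 times larger (2.79 to 4.79). No other transcript of the annotation matched Clec12b over 100 bases at 95% identity.

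None of the 3 measured DCIR-type genes of the Dectin-2 cluster reached 1.5-fold, although Clec4a2 passed it under upper-quartile scaling and with library totals. Clec4a2, the inhibitory receptor DCIR, had 391 and 572 counts and a ratio of 1.36 (1.2 to 1.55). Clec4a3 had 873 and 933 counts, a ratio of 0.996 (0.907 to 1.09) whose sign changed with the scaling, and Clec4a1 had 599 and 544, a ratio of 0.846 (0.752 to 0.952). Clec4a4, a dendritic cell receptor of the group, had only 2 and 13 counts, and its ratio of 6.06 has an interval of 1.37 to 55.3. Clec4a2 and Clec4b1 share a stretch of 436 bases at 96.3% identity, and Clec4a2 and Clec4a4 one of 301 bases at 95.3%, so reads there may be split between them.

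**Figure D3:**
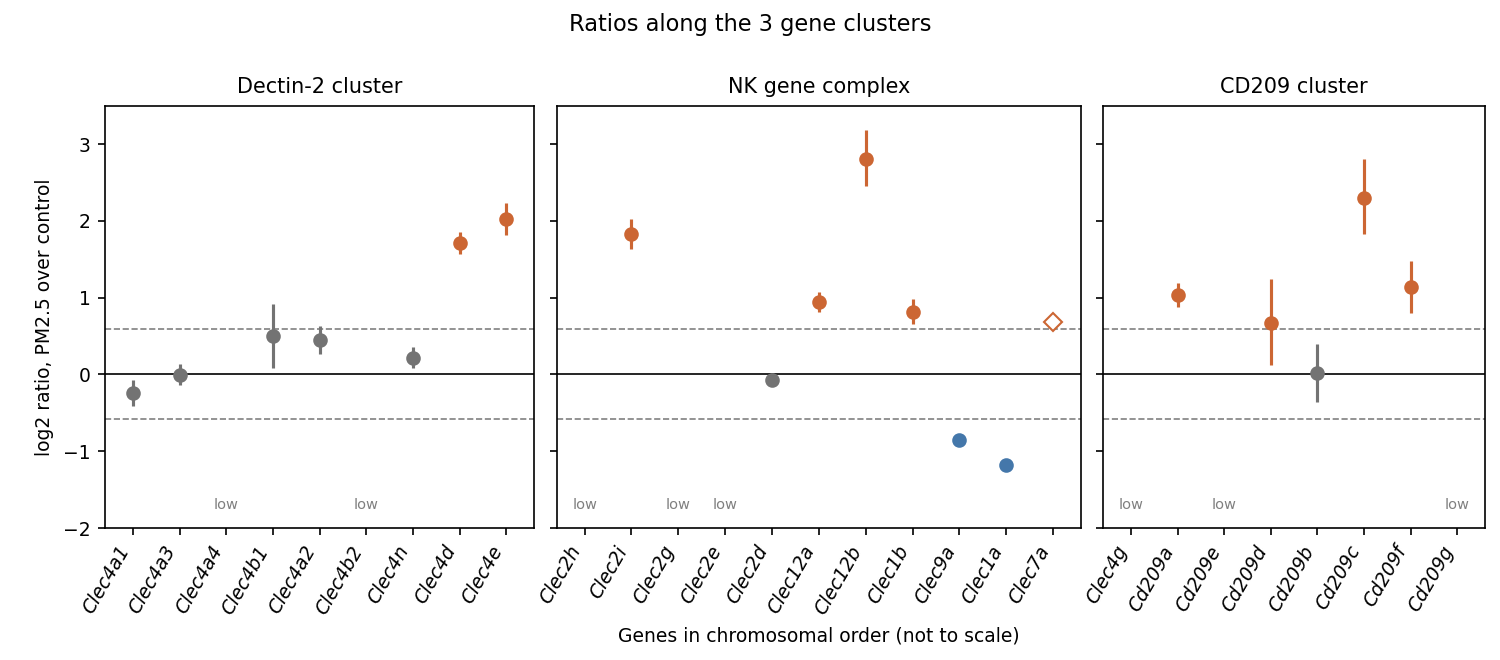
The log2 ratio of each gene in chromosomal order in the Dectin-2 cluster and the natural killer gene complex on chromosome 6 and the CD209 cluster on chromosome 8, with exact 95% counting intervals. The open diamond is Clec7a, which is no member, and "low" marks genes under a mean of 1 CPM. Clec4d and Clec4e stand above the 5 other measured genes of their cluster, and in the natural killer complex Clec9a and Clec1a lie below 0 between higher genes.

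Neighbours in a cluster did not all share a direction. Over all measured genes the shares were 14.9% higher and 19.1% lower, or 23.8% and 9.90% with library totals. With so few members per cluster, the counts below were not tested against those shares. In the Dectin-2 cluster, chromosome 6 from 122921848 to 123289870, 2 of 7 measured members were higher, the adjacent pair Clec4d and Clec4e at its end. In the natural killer gene complex, from 128662385 to 129452000, 4 of 7 were higher and 2 lower. There the lower genes Clec9a and Clec1a lie between Clec1b and Clec7a, which were higher. In the CD209 cluster, chromosome 8 from 3707064 to 4137707, 4 of 5 measured members were higher and none lower. Of these, Cd209c and Cd209d were measured only through the PM2.5 library, where they were higher, so the filter favoured that direction.

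The CD209 genes, relatives of the human mannose receptor DC-SIGN, were higher in 4 of 5 measured cases, against 14.9% of all measured genes. With the length trend removed they were higher in 3 cases, against 14.2% of all genes. The share of all genes was 23.8% with library totals, where 4 CD209 genes were higher. Of the 4, Cd209c and Cd209d were measured only through the PM2.5 library, where they were higher, and without them the count is 2 of 3. Cd209a, found on dendritic cells, had 455 and 999 counts, or 7.85 and 16.1 CPM, and was 2.05-fold higher (1.83 to 2.29). Cd209c had 44 and 233 counts, a 4.94-fold higher level (3.56 to 6.98), and Cd209f had 106 and 250, a 2.20-fold higher level (1.74 to 2.79). Cd209d, with 45 and 77 counts, had a ratio of 1.59 (1.09 to 2.36) and fell short of 1.5-fold with the length trend removed. Cd209b, or SIGNR1, known from marginal zone macrophages of the spleen, had 116 and 126 counts and a ratio of 1.01 (0.780 to 1.31), with no firm direction. Cd209g had 29 and 58 counts and Cd209e 5 and 4. Cd209f and Cd209g share 503 bases at 99.6% identity. Cd209c matches 7 genes over at least 100 bases at 95%, the longest match being 438 bases of a pseudogene, Olfr1372-ps1, at 97.3%. The separate values of Cd209c, Cd209f and Cd209g are therefore uncertain.

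Clec10a, the galactose-binding receptor MGL1 of macrophages and dendritic cells, went the other way from Cd209a. It had 565 and 437 counts, or 9.75 and 7.03 CPM, a ratio of 0.721 (0.635 to 0.818), which missed the 1.5-fold size. Cd209a relative to Clec10a was 2.84 times larger in the PM2.5 library (2.39 to 3.37). Its paralogue Mgl2 (chromosome 11, 70130329 to 70137550), outside the rule and looked at after its value was seen, had 658 and 2341 counts and was 3.32-fold higher (3.04 to 3.62). The ratio of Mgl2 to Clec10a counts was 1.16 for the control and 5.36 for the PM2.5 library. The pair shares 735 bases at 96.1% identity, and how the counting treated reads from there was not tested. The Kupffer cell receptor gene Clec4f, also galactose-binding, had 1 count in each library.

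Both measured members of the vessel lining were lower. Clec14a, a receptor of endothelial cells that binds the matrix protein multimerin 2, made up 49.8% of the summed CPM of all members for the control and 37.1% for the PM2.5 library. It (ENSMUSG00000045930, chromosome 12, 58264720 to 58269290, minus strand) had 46221 and 25240 counts, or 797 and 406 CPM, a 1.96-fold lower level (1.93 to 2.0). Clec1a, a receptor for fungal melanin on endothelial and some myeloid cells, had 253 and 112 CPM and was 2.26-fold lower (2.20 to 2.33). The count of Clec14a relative to Clec1a was 1.15 times larger in the PM2.5 library (1.12 to 1.19), so the pair did not differ by quite the same factor. Of 12 endothelial markers, 10 were lower (6 with library totals) and none higher, from 6120 to 2944 CPM in sum. Cdh5 and Pecam1, the most abundant, were 3.05-fold and 1.72-fold lower. Relative to Cdh5, Clec14a was 1.55 times and Clec1a 1.34 times larger in the PM2.5 library. Cdh5 had the lowest ratio of the 12 markers, and these pairs were chosen after the values were seen. The median log2 ratio of the markers was -0.89, against -0.97 for Clec14a and -1.18 for Clec1a. The Clec14a ligand gene Mmrn2 was 1.74-fold lower with 3765 and 2325 counts, and just under 1.5-fold lower with library totals (-0.57 on the log2 scale). Clec4g, a lectin of liver and lymph node sinusoids, had 32 and 40 counts.

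The CLEC2 group holds ligands of the NKR-P1 receptors, by which natural killer cells survey tissue. Clec2d, the widely expressed ligand of Klrb1b, had 11163 and 11412 counts, or 193 and 183 CPM, and a ratio of 0.953 (0.928 to 0.978). Its relative Clec2i (chromosome 6, 128887588 to 128898167, plus strand) had 274 and 1042 counts and was 3.54-fold higher (3.10 to 4.06). The direction of Clec2d is not firm, since its log2 ratio of -0.07 was 0.16 with library totals, whereas that of Clec2i stayed between 1.77 and 2.06 under every scaling and with the length trend removed. The remaining genes of the group were near the floor: Clec2g had 7 and 30 counts, with a ratio of 3.99 (1.72 to 10.8), Clec2h 0 and 6, Clec2e 7 and 3, and Clec2l 18 and 10. Clec2i and Clec2h share 126 bases at 96.8% identity, and Clec2i overlaps the gene BC035044 on the opposite strand without a shared exon. The receptor genes Klrb1b, Klrb1c and Klrb1f were 1.67-fold, 1.61-fold and 1.77-fold higher, of which Klrb1b was just under 1.5-fold with the length trend removed.

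The secreted members and Clec16a completed the group. Clec3b, which encodes tetranectin, a plasminogen-binding protein of plasma and connective tissue, had 6720 and 6733 counts and a ratio of 0.934 (0.903 to 0.966). Its direction is not firm either, with log2 ratios of 0.13 with library totals and 0.039 under upper-quartile scaling. Clec11a, a growth factor of bone marrow stroma, had 552 and 532 counts, a ratio of 0.898 (0.796 to 1.01) that turned to a log2 ratio of 0.08 with library totals, and the ratio between these genes moved by a factor of 1.04 (0.917 to 1.18). For Clec3a, a cartilage protein, and Clec18a, the 0 counts in both libraries allow up to 0.0517 CPM in the control and 0.0482 CPM in the PM2.5 library. Cartilage markers were also near the floor, with a summed level of 1.26 and 2.49 CPM over 6 genes, of which Col2a1 and Comp had the most counts, 43 and 21, and 15 and 49. Clec16a encodes an intracellular regulator of autophagy and belongs by name only. It had 2654 and 1843 counts and was 1.55-fold lower (1.46 to 1.64), a size it missed with library totals, with the upper quartile and with the length trend removed.

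Genes that act beside the receptors were looked at in lists drawn up with earlier results of these data known. For comparison, 14.9% of all measured genes were higher and 19.1% lower. These shares were 23.8% and 9.90% with library totals, and 14.2% and 16.7% with the length trend removed. Of 18 signalling genes, all measured, 6 were higher and 1 lower (9 and 0 with library totals, 5 and 1 with the length trend removed), with a median log2 ratio of 0.38. The adaptor DAP12, Tyrobp, was 2.02-fold higher (1.95 to 2.09) with 4267 and 9242 counts, and the Fc receptor gamma chain, Fcer1g, was 1.73-fold higher (1.65 to 1.82) with 2482 and 4607. Syk itself had a ratio of 1.38 and its partner Card9 was 1.62-fold higher, while the exchange factor gene Vav3 was 1.67-fold lower. These calls depend on the processing. With the length trend removed the log2 ratios of Tyrobp, Fcer1g and Card9 were 0.46, 0.32 and 0.54, all under 1.5-fold, and that of Syk was 0.68, above it. Vav3 was at -0.51 with library totals, also under 1.5-fold. Of 6 genes of inhibitory signalling, Dok3 was 2.30-fold and Dok2 1.62-fold higher, the phosphatase gene Ptpn11 was 1.58-fold lower, and the other 3 were neither. Ptpn11 missed 1.5-fold with library totals, under upper-quartile scaling and with the length trend removed, where its log2 ratios were -0.43, -0.52 and -0.49.

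Of 11 measured protein ligands and partners, 4 were higher and 2 lower (5 and 1 with library totals), and their median log2 ratio was 0.27. Among all measured genes, 14.9% were higher and 19.1% lower (23.8% and 9.90% with library totals). The podoplanin gene Pdpn, ligand of CLEC-2, had 11835 and 11076 counts and a ratio of 0.872 (0.03 on the log2 scale with library totals), and Sap130, the nuclear protein bound by Mincle, a ratio of 0.698. Vimentin, Vim, was 1.91-fold lower with 73724 and 41353 counts. Among 22 measured genes with C-type lectin-like domains outside the rule, 6 were higher and 6 lower (7 and 4 with library totals), and their median log2 ratio was 0.04, or -0.10 with the length trend removed. The antimicrobial lectin Reg3g was 3.60-fold higher, while the endothelial genes Thbd and Cd93 were 1.74-fold and 2.64-fold lower, Thbd just under 1.5-fold lower with library totals (-0.57 on the log2 scale). The lung collectin Sftpa1, which marks the labelled tissue, had 231289 and 233243 counts.

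**Figure D4:**
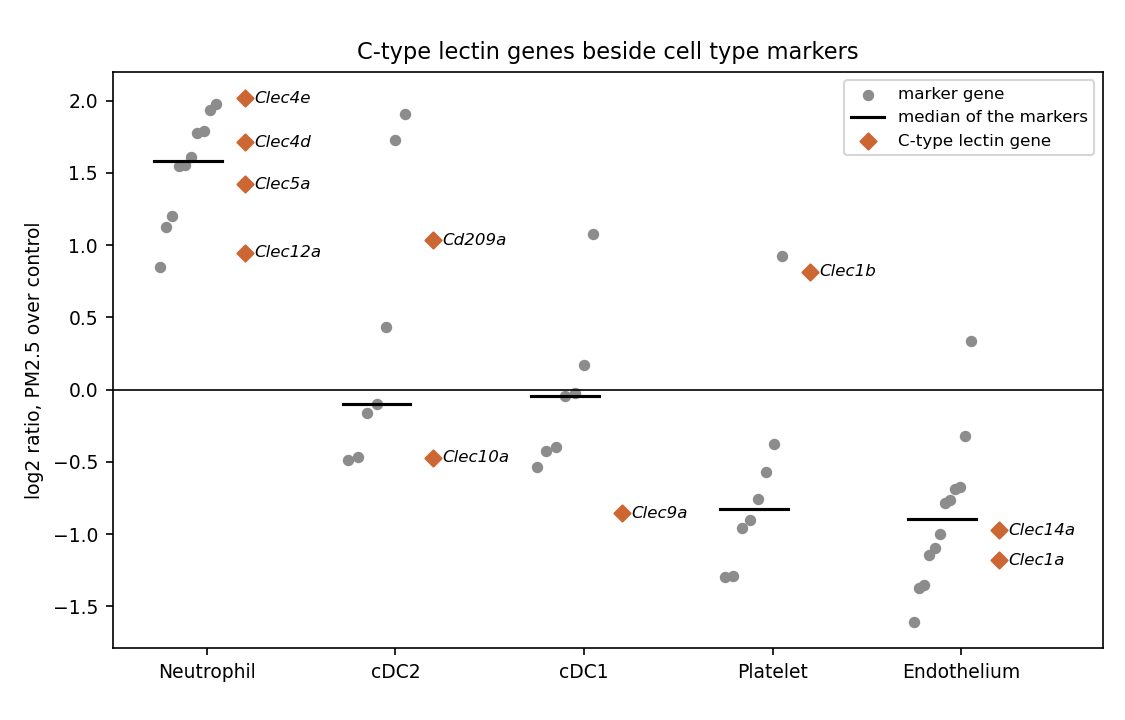
The log2 ratio of measured marker genes of 5 cell types (grey points, black line at their median) beside members known from those cells (diamonds). Clec4d, Clec4e, Clec5a and Clec12a lie in or near the range of the neutrophil markers, Clec14a and Clec1a among the endothelial markers, Clec9a below all 7 cDC1 markers, and Clec1b below Pf4 and above the other platelet markers.

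Markers of the cells that carry these receptors moved with several results, and their part in them was not tested. All 10 neutrophil markers were higher, with ratios of 1.80 to 3.93 and summed levels of 513 and 1671 CPM. The calprotectin genes S100a9 and S100a8 were 3.43-fold and 3.46-fold higher, and relative to S100a8 the Clec4d count moved by a factor of 0.949 (0.857 to 1.05). Relative to the same gene, Clec4e was 1.17 times larger (1.01 to 1.36). Both pairs were chosen after the values were seen. The median log2 ratio of the 10 neutrophil markers was 1.58, against 1.71 for Clec4d and 2.02 for Clec4e. Of 8 monocyte markers (1013 and 564 CPM), Ccr2 and Ly6c2 were 1.59-fold and 1.83-fold higher, and Fn1 and Cx3cr1 were 3.43-fold and 1.66-fold lower. Of 10 alveolar macrophage markers (726 and 741 CPM), Pparg and Marco were 1.65-fold and 3.57-fold higher, and Mrc1 and Siglec1 were 1.62-fold and 1.71-fold lower. Of 8 interstitial macrophage markers (487 and 351 CPM), 4 were higher, with C1qb and C1qc both at 1.61-fold, and 2 lower, among them Lyve1 at 2.13-fold. With library totals 2 monocyte markers were higher and 1 lower, 3 and 0 of the alveolar and 5 and 1 of the interstitial macrophage markers, and with the length trend removed these were 2 and 2, 2 and 3, and 2 and 2. Among 7 cDC2 markers, 2 were higher and none lower, Mgl2 and the chemokine gene Ccl17 at 3.76-fold, with 297 and 262 CPM in sum. Of 5 measured markers of plasmacytoid dendritic cells Bst2 and Ly6d were 1.79-fold and 1.75-fold higher and Tcf4 was 1.86-fold lower (300.2 and 234 CPM in sum over 6 genes), but with the length trend removed none was higher or lower.

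Natural killer markers were higher in 4 of 6 cases and B cell markers in 4 of 5, none lower, while 0 of 5 T cell markers was higher or lower. Of all measured genes, 14.9% were higher and 19.1% lower (23.8% and 9.90% with library totals, 14.2% and 16.7% with the length trend removed). B cell markers were higher in 5 cases with library totals and in 3 with the length trend removed. The leading natural killer genes, Gzma and Klrd1, had ratios of 2.91 and 3.52, and the B cell receptor genes Cd79a and Cd79b were 1.56-fold and 1.72-fold higher. The T cell genes Lck and Cd3g had ratios of 0.968 and 1.04. Summed levels of the natural killer, B and T cell lists were 38.9 and 88.1, 196 and 347, and 60.3 and 60.8 CPM. Lymphatic markers were lower in 4 of 6 cases (584 and 334 CPM), led by Lyve1 and Flt4, the latter 2.73-fold lower. Fibroblast markers (2888 and 1428 CPM) were higher in 2 and lower in 3 of 8 cases, with Dcn 2.68-fold and Pi16 1.96-fold higher and Col3a1 3.70-fold and Pdgfra 2.77-fold lower. With library totals, lymphatic markers were higher in 1 and lower in 3 cases, and fibroblast markers higher in 3 and lower in 3. Of 3 measured liver sinusoid and Kupffer markers (6.74 and 8.01 CPM over 5 genes), Fcna was 4.29-fold higher and Stab2 1.93-fold lower. Fat markers were higher in 7 of 7 cases (72.8 and 519 CPM), among them Cfd and Fabp4 at 5.82-fold and 6.08-fold, and the brown fat gene Ucp1 had 8 and 4855 counts. Red cell markers were lower in 4 of 4 measured cases (5164 and 2117 CPM), led by Hbb-bs and Hba-a1 at 1.85-fold and 3.79-fold. No marker of these lists was at 0 except the cartilage gene Matn1 in the control library.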

How the data were processed

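RNA of 2 mouse lung libraries was compared. Per the labels, stranded libraries were made from purified mRNA and read in pairs of 125 bases. The authors deposited raw read counts per Ensembl gene; TopHat2 2.1.1, HTSeq 0.6.0 and mm10 were used per the submitters' processing notes, while annotation release and strand setting (not given in the sources used here) are unknown. The control total was 62788045 counts and the PM2.5 total 57435027. Names, coordinates and exon lengths came from GENCODE M21 (GRCm38, or mm10), which named 35449 identifiers.

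TMM factors from edgeR 4.0.16 were 0.923 and 1.08. Each interval is the exact Clopper-Pearson interval (95%) of the part of a gene's reads that fell in the PM2.5 library, and ratios of 2 genes carry exact conditional odds ratio intervals. Reads are not independent molecules, so intervals and the floor of 3 counts cover counting error only. Near-copies were found with BLAST 2.17.0 (at least 100 bases at 95%). The steps were checked on simulated data. Alternatives used DESeq2 1.42.0 size factors, other scalings, filters and sizes, and a lowess length trend (statsmodels 0.14.6).

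The members and lists were chosen with earlier results of these data known. All members were to be named, and in each list up to 2 of the most abundant genes past 1.5-fold in each direction, or the 2 most abundant where none passed; other genes named, the groups by role and 10 of the 18 gene pairs were chosen after their values were seen. Protein sequences were not used here. Some genes that this rule names are not reported here.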

Additional observations from a re-analysis of the deposited data

How the results depend on the processing

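The count of 11 higher and 4 lower members came within 1.5 times under every other scaling, with the length trend removed, with the interval bound beyond 1.5-fold and without a filter. At 2-fold, 1 member was lower, Clec1a, and 8 were higher, against 6.04% lower and 7.25% higher among all measured genes. At a mean of at least 10 CPM, 6 of 14 members were higher and 4 lower, against 8.31% and 21.1% of all genes at that level. The median log2 ratio of 0.45 became 0.68 with library totals, 0.59 with the upper quartile, 0.11 at a mean of at least 10 CPM and -0.011 with the length trend removed. Library totals and the upper quartile raise every log2 ratio by 0.23 and 0.14, and the shares of all measured genes that were higher and lower were then 23.8% and 9.90%, and 19.5% and 13.2%. Of the 15 members counted as higher or lower, 14 kept that under all 4 other scalings and 13 with the length trend removed. The exceptions were Clec16a in both cases and Cd209d with the trend removed. Clec4a2 and Clec4b1 became higher with library totals and the upper quartile. No paired analysis was possible because each group has 1 library. Variation between animals cannot be seen in these libraries, and members under 1 CPM rest on at most 58 counts in either library.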

Other observations

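Lectins of the liver, outside the rule and picked after their values were seen, did not share a direction. Asgr1, a subunit of the asialoglycoprotein receptor, had 21 and 293 counts, a ratio of 13 (8.35 to 21.3), while its partner Asgr2 had 34 and 47. The collectin gene Colec10 had 107 and 7 counts, and its relative Colec11 had 62 and 73. Mbl1, a mannose-binding lectin of plasma, had 32 and 78 counts and Mbl2 had 0 in both libraries.

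The B cell lectins Cd72 and Fcer2a were 3.21-fold and 1.5-fold higher. The macrophage mannose receptor Mrc1, its relative Mrc2 and the dendritic cell receptor Ly75 were 1.62-fold, 2.47-fold and 1.79-fold lower. Of these, Mrc1 missed 1.5-fold with library totals, under upper-quartile scaling and with the length trend removed, and Fcer2a missed it with DESeq2 size factors, with TMM without the 100 most abundant genes and with the length trend removed.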
